A study of Oryza sativa with 12 samples.

Results

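Rice embryos keep messages from the seed programme for some time after imbibition, and 4 genes of that programme were followed here in embryos germinated with or without sugar, respiratory energy and oxygen. They are GLUA-1 (LOC4327027) and GLUB-4 (LOC4328969), which encode glutelins, prolamin (also PROLM25, LOC4342688) and OLE18 (also OSE721, LOC4333812), which encodes an oleosin. The members were the probe sets assigned to 1 gene whose symbol or synonym is one of these 4 names. The rule found 4 probe sets, 1 for each gene, of 36643 probe sets on the array (called probes below), which stand for 24160 genes where 1 gene is assigned.

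Total RNA of embryos of Oryza sativa cultivar Dongjin was hybridised to 12 arrays, 2 for each of 6 conditions. Groups of 150 to 200 embryos were incubated for 24 h in darkness at 28 °C, with 10 mM CaCl2 in the medium. In GlcAC the medium held 60 mM glucose and in MtlAC 60 mM mannitol, a sugar alcohol that gives the same osmotic strength. The labels do not spell out AC, which is read here as the submerged incubation in medium flushed with nitrogen that the protocol describes. GlcDNP and MtlDNP were kept in air with the same sugars plus 2,4-dinitrophenol (DNP) at 0.08 mM, an uncoupler that carries protons across the inner mitochondrial membrane and so cuts ATP made by respiration. Glc and Mtl were kept in air with glucose or mannitol and no DNP. All embryos had been cut from the endosperm before incubation, and every condition was sampled at the same time, so "rose" and "fell" below compare conditions and not times.

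Glutelins are the main reserve proteins of the rice grain. They are made on the endoplasmic reticulum of endosperm cells, cut by a vacuolar enzyme and packed into storage vacuoles, whereas prolamins are alcohol-soluble reserve proteins that stay as protein bodies inside the reticulum. Oleosins coat the oil bodies of the embryo, above all in the scutellum, and of the aleurone, and keep stored oil dispersed until lipases use it. Transcripts of all these genes build up during seed maturation and fall away after germination begins.

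Values are log2 RMA expression values, and an SD or a pair of values refers to the 2 arrays of a condition. The design text calls the replicates technical, so the 2 arrays may hold the same RNA, and p-values measure the spread between arrays rather than between batches of embryos. A difference was called when limma gave an adjusted p under 0.05 over all 36643 probes and the log2 difference was at least 1 in size, a fold of 2. Array medians were 3.231 to 3.311. The 5th percentile of an array lay at 1.119 to 1.162 in the DNP conditions, 1.051 and 1.101 in GlcAC, 1.14 and 1.122 in MtlAC, and 1.001 to 1.013 in air, so values at the low end were compressed upward where the spread of the arrays was narrower. Quantile normalization, which gives all arrays the same distribution, left GLUB-4 at -1.45 and prolamin at -1.48 for glucose over mannitol under AC. For DNP on mannitol it moved GLUB-4 from 0.55 to 0.34 and prolamin from 0.50 to 0.42. Beyond this, the part of the compression in the differences of dim probes was not tested. In whole embryos, fewer cells of a type and less RNA per cell cannot be told apart.

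The labelled tissue was checked with marker genes. Of 5 embryo markers OLE18 is itself a member and checks nothing. Among the other 4, EM, which encodes an early methionine-labelled protein of late embryogenesis, had condition means of 5.96 to 8.48, VP1 4.54 to 5.24 and RAB21 3.28 to 5.58, while the meristem gene OSH1 lay near the array median at 3.03 to 3.43. The 6 endosperm starch markers were not uniformly dim. Wx, for granule-bound starch synthase, had condition means of 1.28 to 1.85, but SSI stood at 3.50 to 4.07 and ISA1 at 4.00 to 5.33, above the array median on every array, so these markers do not show whether endosperm RNA was absent. No detection call was used, so dim is a description against the array's own distribution.

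GLUA-1 was the storage protein gene with the widest range among the members. It read 3.27 and 3.76 in GlcAC, 4.68 and 4.67 in MtlAC, 4.45 and 4.03 in GlcDNP, 4.53 and 3.84 in MtlDNP, 2.17 and 2.63 in Glc and 3.89 and 4.00 in Mtl. Both Glc arrays lay below every other array, and the other 10 arrays lay within 3.27 to 4.68. Condition means spanned 2.28, a fold of 4.84. In descending order they ran MtlAC, GlcDNP, MtlDNP, Mtl, GlcAC and Glc. The arrays of GlcDNP and MtlDNP overlapped, as did those of MtlDNP and Mtl, while Mtl, GlcAC and Glc lay apart in turn. GLUA-1 was below the median of its array on 2 of the 12 arrays, both of them Glc.

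GLUB-4 was dim throughout. It read 1.05 and 1.23 in GlcAC, 2.36 and 2.89 in MtlAC, 1.92 and 1.70 in GlcDNP, 2.43 and 2.04 in MtlDNP, 1.71 and 1.27 in Glc and 1.58 and 1.79 in Mtl. It lay below the array median on all 12 arrays and below the 25th percentile on 9, so it is not shown to be above background, least of all in GlcAC. The order of means was MtlAC, MtlDNP, GlcDNP, Mtl, Glc and GlcAC. MtlAC overlapped MtlDNP, and GlcDNP overlapped Mtl, which overlapped Glc. The GlcAC arrays were the lowest of all.

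The prolamin probe followed nearly the same order at a higher reading. It read 2.27 and 2.38 in GlcAC, 3.82 and 3.82 in MtlAC, 2.68 and 2.89 in GlcDNP, 3.53 and 3.20 in MtlDNP, 3.01 and 2.22 in Glc and 2.71 and 3.02 in Mtl. It was below the array median on 9 of the 12 arrays. MtlAC stood apart at the top, MtlDNP came next and stood apart from Mtl, and Mtl, GlcDNP, Glc and GlcAC overlapped from one to the next. The 2 Glc arrays differed by more than those of any other condition (SD 0.56). Across the 6 condition means prolamin and GLUB-4 had a Pearson r of 0.988, and over the 12 arrays 0.943. These points share arrays, so the correlation is a description.

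OLE18 was bright and tight, with SDs of 0.05 to 0.18. It read 7.15 and 7.32 in GlcAC, 7.88 and 7.77 in MtlAC, 8.50 and 8.60 in GlcDNP, 8.45 and 8.52 in MtlDNP, 6.73 and 6.48 in Glc and 6.55 and 6.29 in Mtl. It exceeded 92.7% of the probes or more on every array. Both DNP conditions were on top and overlapped each other, MtlAC and GlcAC followed as 2 separate steps, and Glc and Mtl overlapped at the bottom. The span of 2.13 between GlcDNP and Mtl is a fold of 4.38. Over the 6 condition means, the r of OLE18 was 0.627 with GLUA-1, 0.524 with GLUB-4 and 0.431 with prolamin.

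**Figure D1:**
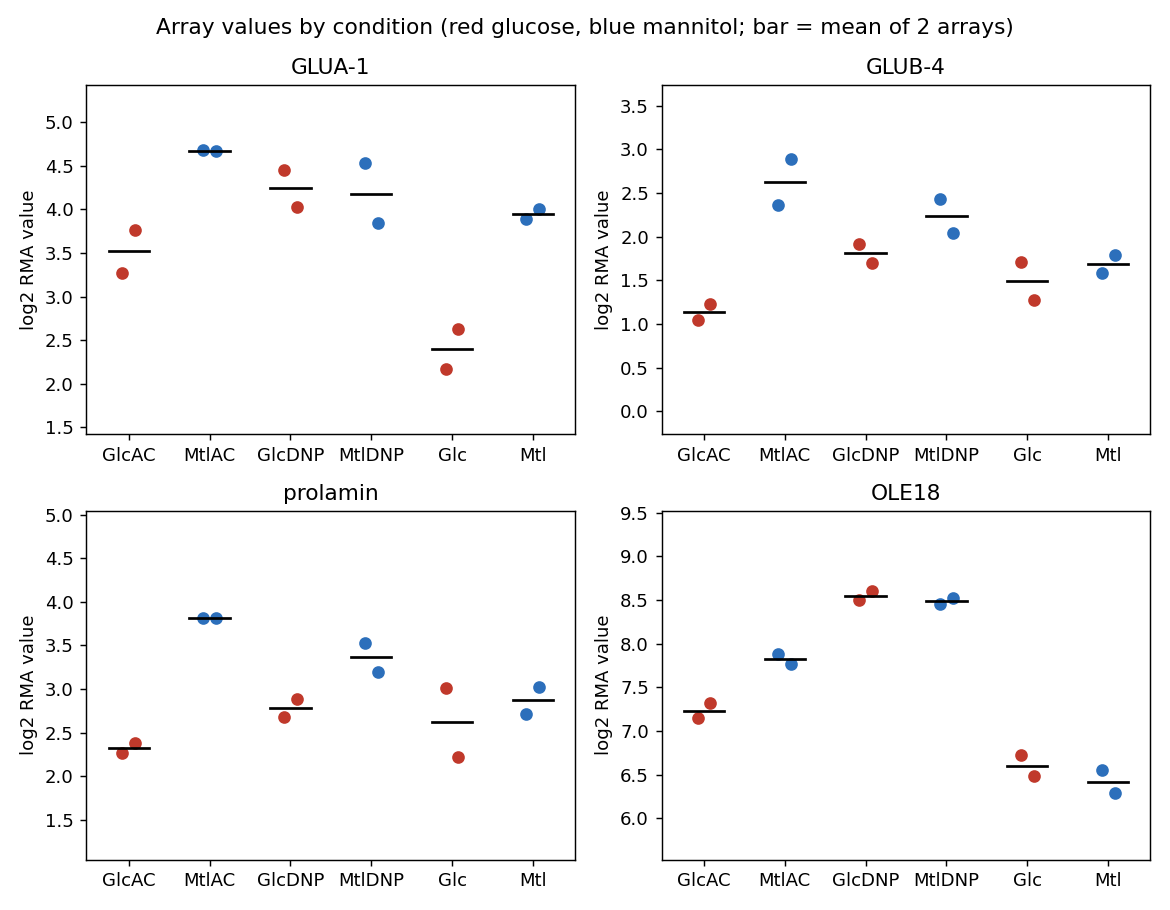
Log2 RMA value (vertical axis, the same span in each panel) of the 4 genes on each array, by condition (horizontal axis), with glucose in red, mannitol in blue and a bar for the mean of the 2 arrays. GLUA-1 is lowest in Glc, GLUB-4 and prolamin are highest in MtlAC and lowest in GlcAC, and OLE18 is highest in the 2 DNP conditions.

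In air, glucose went with a lower reading of GLUA-1 and with no called difference in the other members. GLUA-1 averaged 2.40 ± 0.33 in Glc and 3.95 ± 0.075 in Mtl (SD, n = 2 arrays each), a 2.92-fold lower reading with glucose (log2 difference -1.55 ± 0.28 SE, limma adjusted p = 0.0176). It was the 1 member of 4 called lower, where 1.53% of all probes were. OLE18 differed by 0.19 (95% interval -0.20 to 0.57), GLUB-4 by -0.20 (-0.74 to 0.34) and prolamin by -0.25 (-0.82 to 0.32), and the arrays of Glc and Mtl overlapped for all 3. The GLUA-1 call was lost when Glc replicate 1, Mtl replicate 1 or Mtl replicate 2 was left out (limma adjusted p = 0.144, adjusted p = 0.1 and adjusted p = 0.13, at differences of -1.31, -1.60 and -1.49).

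With DNP present, no member was called between glucose and mannitol, and 0.0136% of all probes were. GLUA-1 averaged 4.24 in GlcDNP and 4.18 in MtlDNP, a log2 difference of 0.06 (95% interval -0.57 to 0.68). GLUB-4 and prolamin were lower on both GlcDNP arrays than on either MtlDNP array, at -0.42 ± 0.24 and -0.58 ± 0.26 SE. This arrangement was shown by 17.5% of all probes. The prolamin difference was the only one of the 4 with an unadjusted p under 0.05 (limma adjusted p = 0.688). Such an unadjusted p was found for 7.16% of all probes. OLE18 differed by 0.06 (95% interval -0.32 to 0.45).

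Under AC the 4 members all read lower with glucose. For each of them both GlcAC arrays lay below both MtlAC arrays, an arrangement that 25.6% of all probes showed. Prolamin averaged 2.32 ± 0.077 in GlcAC and 3.82 ± 0.0046 in MtlAC, 2.82-fold lower (-1.50 ± 0.26 SE, limma adjusted p = 0.0117). Its GlcAC arrays exceeded only 27% and 29.3% of the probes, so the size of this fold is uncertain. GLUB-4 averaged 1.14 ± 0.12 in GlcAC and 2.63 ± 0.37 in MtlAC (-1.49 ± 0.24 SE, adjusted p = 0.0093), a difference whose size is unsettled because of the dim GlcAC reading. These were the 2 of 4 members called lower, against 0.393% of all probes. GLUA-1 missed the threshold at -1.16 ± 0.28 SE (limma adjusted p = 0.0516), and without dim probes or with a trended, robust prior it was called (adjusted p = 0.0199 and adjusted p = 0.0357). OLE18 stood at -0.59 ± 0.17 SE (adjusted p = 0.104). Without dim probes and with a trended, robust prior its adjusted p was 0.0447 and 0.0466 at the same size, and after quantile normalization it stood at -1.0 (adjusted p = 0.0161), short of the size threshold by less than the printed digits.

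The calls under AC depended on single arrays. Prolamin was no longer called without GlcAC replicate 1, GlcAC replicate 2, MtlAC replicate 1 or MtlAC replicate 2 (limma adjusted p = 0.0886, 0.0779, 0.0702 and 0.0587), with differences of -1.44 to -1.55. GLUB-4 was not called without GlcAC replicate 1, GlcAC replicate 2 or MtlAC replicate 2, or with only the 4 arrays fitted (limma adjusted p = 0.078, 0.0619, 0.0599 and 0.0712). Beside these, none of the 6 endosperm starch markers was called between GlcAC and MtlAC, with a median log2 difference of -0.02. Their mean level was 3.17 and 3.16 on the GlcAC arrays and 3.17 and 3.02 on the MtlAC arrays. Of all probes 2.66% were called in this comparison, so a lack of calls in marker lists this short does not show steady levels. The aleurone and scutellum markers, 0 of 3 called, averaged 2.14 and 2.21 in GlcAC and 2.43 and 2.52 in MtlAC. The 4 green shoot markers, none called, averaged 1.71 and 1.75 in GlcAC and 2.17 and 2.22 in MtlAC. The part of these shifts in the storage gene differences was not tested.

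The uncoupler raised OLE18 on both sugars. On glucose OLE18 averaged 8.55 ± 0.07 in GlcDNP and 6.60 ± 0.18 in Glc, 3.85-fold higher (1.95 ± 0.17 SE, limma adjusted p = 5.01e-05). On mannitol it averaged 8.49 ± 0.05 in MtlDNP and 6.42 ± 0.18 in Mtl, 4.19-fold higher (2.07 ± 0.17 SE, adjusted p = 3.08e-05). Both calls held in the 9 alternatives tried for each, leaving out each array included. After quantile normalization the differences were 2.29 and 2.52.

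GLUA-1 also rose with DNP on glucose. It averaged 4.24 ± 0.3 in GlcDNP and 2.40 ± 0.33 in Glc, 3.58-fold higher (1.84 ± 0.28 SE, limma adjusted p = 0.00111), and this call held in the 9 alternatives tried. On mannitol its arrays overlapped between MtlDNP and Mtl, at 0.24 (95% interval -0.39 to 0.86). GLUB-4 stood at 0.32 on glucose and 0.55 on mannitol, and prolamin at 0.17 and 0.50, all 4 uncalled. The members called higher were therefore 2 of 4 on glucose, where 4.67% of all probes were, and 1 of 4 on mannitol, where 5.91% were.

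Incubation under AC raised OLE18 on mannitol. It averaged 7.83 ± 0.082 in MtlAC and 6.42 ± 0.18 in Mtl, 2.65-fold higher (1.41 ± 0.17 SE, limma adjusted p = 0.000414). The difference was 1.92 after quantile normalization, so its size depended on the normalization. OLE18 was the 1 member of 4 called, with 3.56% of all probes called higher. For each of the 4 members both MtlAC arrays lay above both Mtl arrays, which was so for 37.4% of all probes. GLUB-4 and prolamin stood at 0.94 ± 0.24 and 0.95 ± 0.26 SE, with adjusted p = 0.0205 and adjusted p = 0.0243 but less than the required 2-fold. Without MtlAC replicate 1, GLUB-4 stood at 1.20 and was called (adjusted p = 0.0212). GLUA-1 stood at 0.73 ± 0.28 SE (adjusted p = 0.0843).

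On glucose, AC raised GLUA-1. It averaged 3.52 ± 0.35 in GlcAC and 2.40 ± 0.33 in Glc, 2.17-fold higher (1.12 ± 0.28 SE, limma adjusted p = 0.0367), the 1 member of 4 called, with 2.01% of all probes called higher. GLUB-4 and prolamin stood at -0.35 and -0.29, neither called. Both GLUB-4 arrays of GlcAC lay below both of Glc, as for 25.3% of all probes. OLE18 stood at 0.63 ± 0.17 SE (adjusted p = 0.0544). The GLUA-1 call was lost without Glc replicate 1 or 2 (adjusted p = 0.18 and adjusted p = 0.069) and without GlcAC replicate 1 or 2 (adjusted p = 0.0612 and adjusted p = 0.228). It was also lost after quantile normalization (adjusted p = 0.054) and in the fit of the 4 arrays alone (adjusted p = 0.0781).

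**Figure D2:**
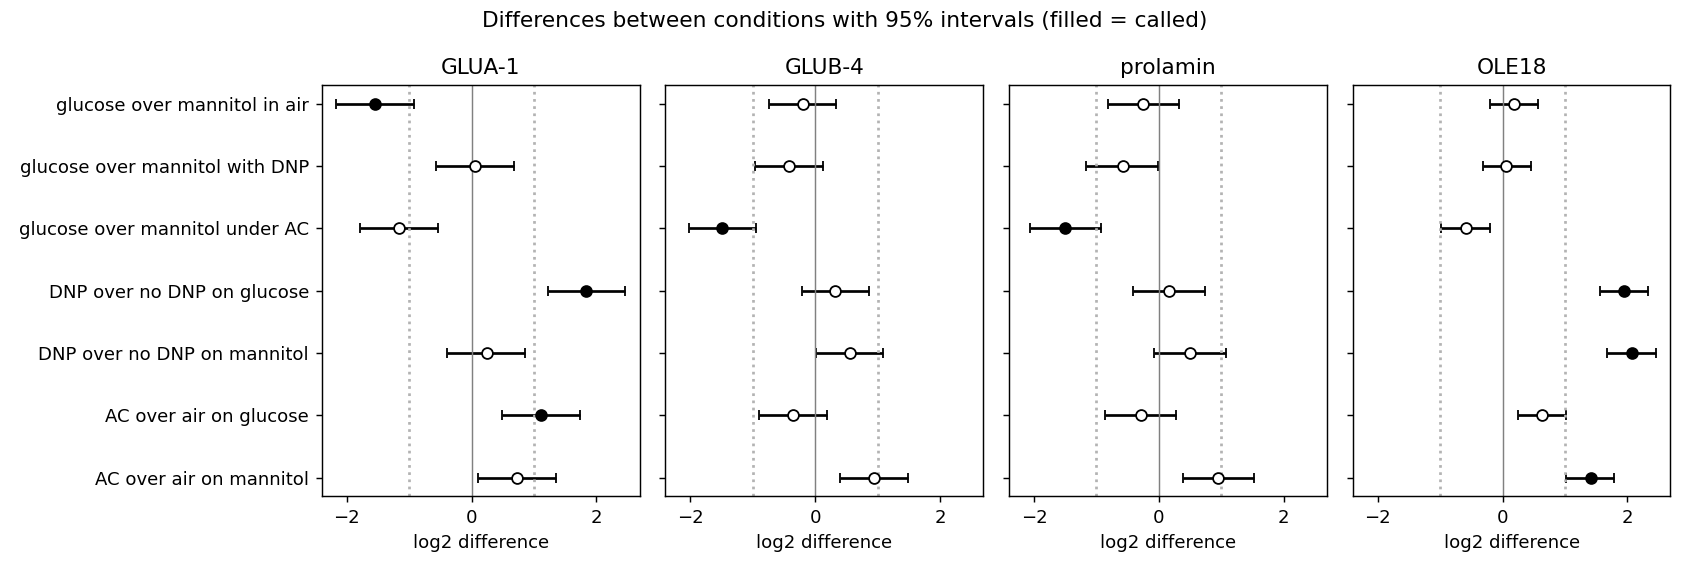
Log2 difference (horizontal axis) with its 95% interval from limma for each of 7 comparisons (rows) and each gene (panels). Filled points passed the adjusted p and the size threshold (dotted lines at -1 and 1), as for OLE18 with DNP at 1.95 and 2.07, and open points did not.

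Whether the sugar difference itself depended on the environment was tested as an interaction. No member was called for sugar and DNP, where 1.19% of all probes were, or for sugar and AC, where 1.15% were. The interaction of GLUA-1 with DNP was 1.60 ± 0.39 SE (limma adjusted p = 0.119). For AC, GLUB-4 stood at -1.29 ± 0.34 (adjusted p = 0.121), prolamin at -1.25 ± 0.36 (adjusted p = 0.153) and OLE18 at -0.78 ± 0.25 (adjusted p = 0.183). These 4 values had an unadjusted p under 0.05, as did 11.5% of all probes for sugar and DNP and 14.6% for sugar and AC. The loss of the GLUA-1 sugar difference with DNP, and the larger prolamin and GLUB-4 differences under AC, are thus not shown to exceed the differences in air once all probes are considered. Both interactions subtract the same Glc and Mtl arrays.

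An additive model over the 6 condition means, which treats conditions rather than arrays as the units, called OLE18 for DNP across sugars (2.01 ± 0.25 SE, limma adjusted p = 0.00683), the 1 member of 4 beside 3.98% of all probes called higher. For AC across sugars no member was called and 1.3% of all probes were called higher. OLE18 stood at 1.02 ± 0.25 SE (adjusted p = 0.0694). For sugar across environments limma called 0 of the 4 members and 0% of all probes. GLUA-1, GLUB-4 and prolamin then stood at -0.88, -0.70 and -0.78, each with an unadjusted p under 0.05 and adjusted p = 0.793, and OLE18 at -0.11. Of all probes, 2258 had an unadjusted p under 0.05 in that comparison.

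Most other reserve protein genes were dim, and few differences among them were called. The 8 measured were the glutelin genes GLUA-2, GLUA-3, GLUB-2, GLUB-5 and GLUD-1, the globulin gene GLB1 and the seed allergen genes RA16 and RA5. Of these, 6 lay below the array median on all 12 arrays and GLUB-5 on 11, while GLB1 was above it on every array. GLUB-5, which lies next to GLUB-4 in the RefSeq assembly, read 2.15 and 2.41 in GlcAC, 3.34 and 2.87 in MtlAC, 2.97 and 2.81 in GlcDNP, 3.25 and 2.97 in MtlDNP, 2.16 and 2.15 in Glc and 2.36 and 2.29 in Mtl. Like GLUB-4 it was lower in GlcAC than in MtlAC, at -0.82 ± 0.20 SE (limma adjusted p = 0.0561). Transcripts of near-identical glutelin genes may reach each other's probes, which was not tested.

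Between GlcAC and MtlAC none of these 8 genes was called, and their median log2 difference was -0.44, beside -0.04 over all probes. GLUD-1 stood at -0.66, GLUA-2 at -0.50 and RA16 at -0.49, whereas GLB1 stood at 0.07 and RA5 at 0.16. GLB1 fell on mannitol where OLE18 rose. It averaged 4.23 in MtlDNP and 5.39 in Mtl (-1.15 ± 0.21 SE, limma adjusted p = 0.00287), and 4.21 in MtlAC against that same Mtl mean (-1.18 ± 0.21, adjusted p = 0.00331). It was the 1 of 8 called in each case, where 10.4% of all probes were called lower with DNP on mannitol and 8.65% with AC on mannitol.

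**Figure D3:**
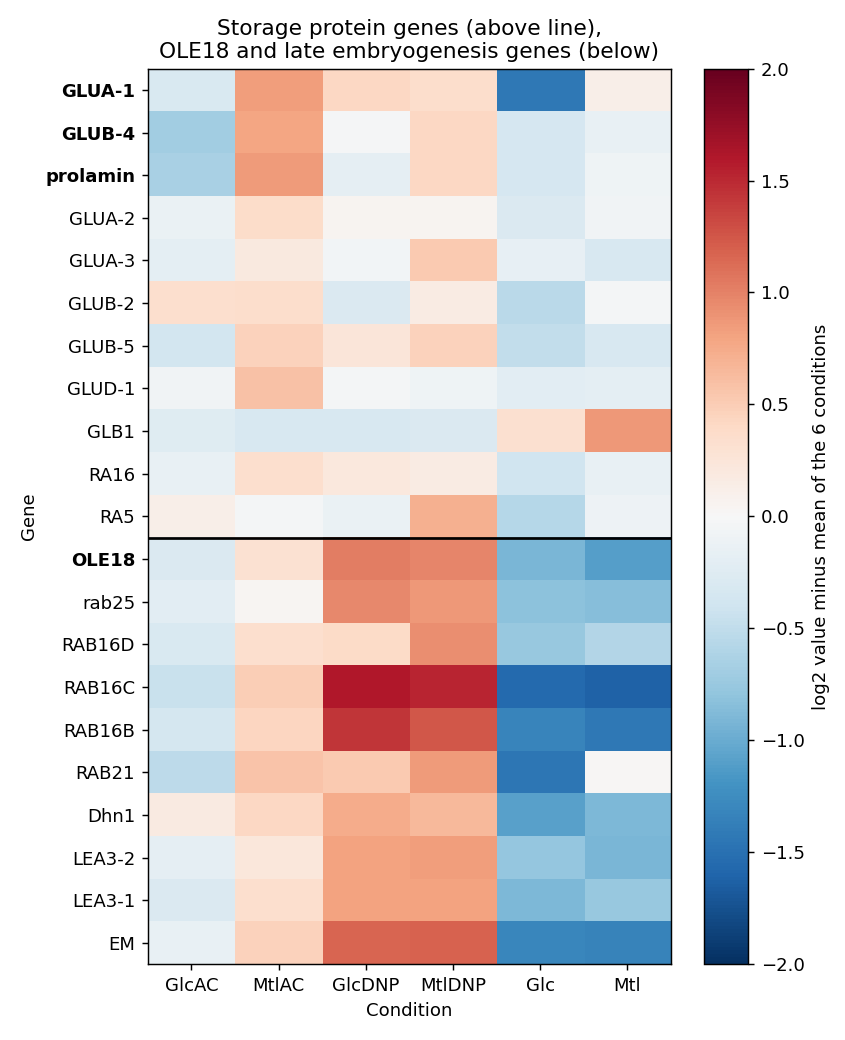
Condition means of 11 storage protein genes (above the line) and of OLE18 with 9 late embryogenesis abundant genes (below), each as log2 value minus the gene's mean over the 6 conditions (colour), with members in bold. OLE18 and the genes under it are lowest in Glc and Mtl except RAB21, which is lowest in Glc only. The storage genes have their highest mean in MtlAC or MtlDNP, except GLB1, which is highest in Mtl. Their lowest condition varies.

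The genes most like OLE18 were mainly late embryogenesis abundant genes, whose products protect drying seeds. Among 965 probes with a usable gene name and condition means spanning at least 1, the 5 most like OLE18 over the 6 condition means were the dehydrin genes RAB16B and RAB16C and LEA3-2 (r of 0.999 each), the calmodulin-like gene CML31 (0.996) and the zinc finger gene OsC3H10 (0.995). RAB16C averaged 6.01 in GlcAC, 6.95 in MtlAC, 8.05 in GlcDNP, 7.97 in MtlDNP, 4.89 in Glc and 4.84 in Mtl. Its order of conditions was that of OLE18, with a wider span of 3.21. Because the 6 points come from shared arrays and many probes were searched, these values rank likeness and carry no p.

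Of the 9 late embryogenesis abundant genes, all were called higher with DNP on glucose, at 1.13 to 3.16 with a median of 1.84, beside a median of 0.10 over all probes. On mannitol 8 of the 9 were called (median 1.72), the exception being RAB21 at 0.83 ± 0.22 SE (limma adjusted p = 0.0189). Under AC 6 of 9 were called higher on mannitol (median 1.14) and 3 of 9 on glucose (median 0.92). The shares of all probes called higher were 4.67% and 5.91% with DNP on glucose and mannitol. Under AC they were 3.56% on mannitol and 2.01% on glucose. EM averaged 8.46 in GlcDNP and 5.99 in Glc (2.47 ± 0.17, adjusted p = 1.47e-05), and 7.76 in MtlAC and 5.96 in Mtl (1.80 ± 0.17, adjusted p = 8.17e-05). Between GlcAC and MtlAC the 9 genes had a median of -0.63, near the -0.59 of OLE18. RAB21 was the 1 called lower, beside 0.393% of all probes.

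The 5 named genes most like GLUA-1 were APRL5 (r of 0.973), the light-induced gene LIR1 (0.957), the actin depolymerizing factor gene ADF-3 (0.956), the dehydrin gene RAB21 (0.945) and HAP3F (0.902), a subunit gene of a CCAAT-binding factor. RAB21 averaged 4.20 in GlcAC, 5.29 in MtlAC, 5.25 in GlcDNP, 5.58 in MtlDNP, 3.28 in Glc and 4.75 in Mtl. Like GLUA-1 it was lowest in Glc, at -1.47 ± 0.22 SE for glucose over mannitol in air (limma adjusted p = 0.0064). Prolamin and GLUB-4 shared their first 3 named neighbours: the polyamine oxidase gene OsPAO6 (r of 0.921 with prolamin and 0.907 with GLUB-4), ITPK1 of inositol phosphate metabolism (0.842 and 0.836) and the protein kinase gene CIPK21 (0.842 and 0.831). LIR1 (0.787) and DVR (0.771) came next for prolamin, and the laccase gene LAC3 (0.798) and the histone deacetylase gene HDA703 (0.797) for GLUB-4.

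**Figure D4:**
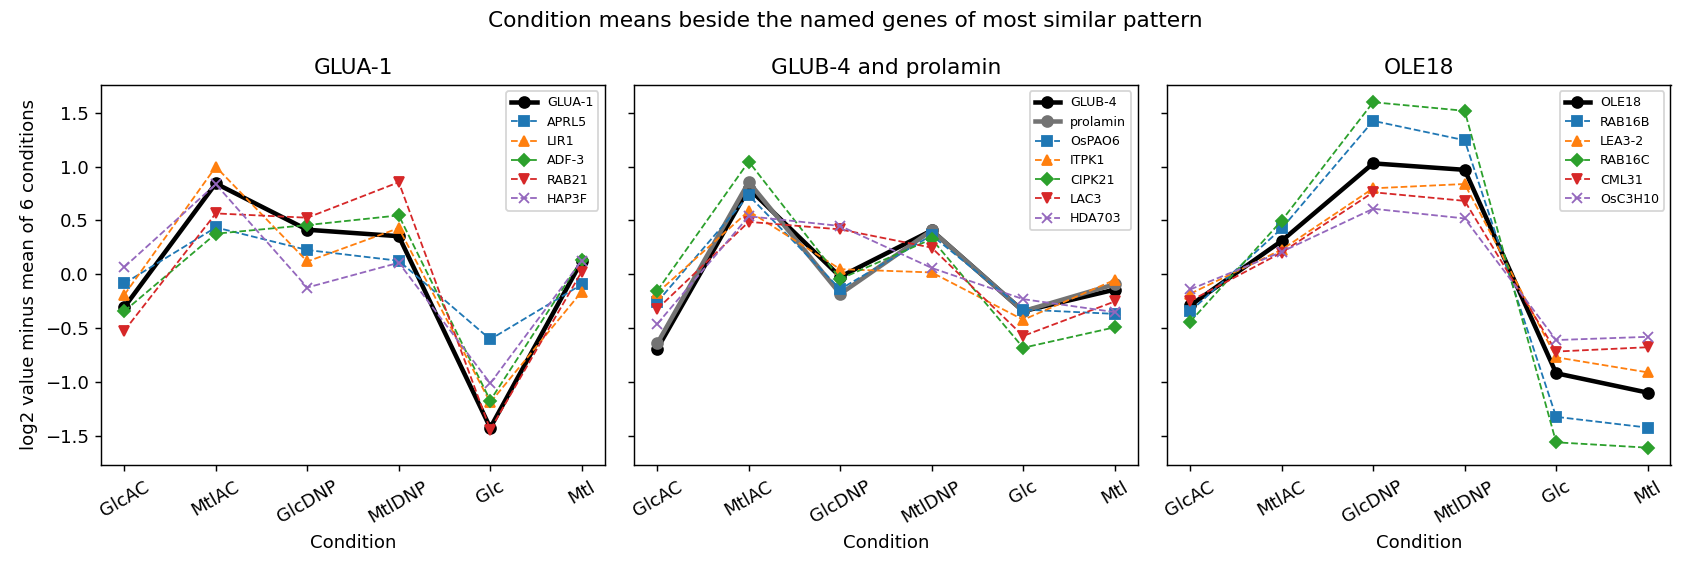
Condition means as log2 value minus the mean of the 6 conditions (vertical axis) by condition (horizontal axis), for the members (thick lines) and the 5 named genes most like each (dashed). The middle panel shows the 5 chosen for GLUB-4. RAB16B, LEA3-2 and RAB16C follow OLE18 with r of 0.999, and the neighbours of GLUB-4 are looser, at 0.797 to 0.907.

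Genes of oil use fell on mannitol with DNP and under AC, where OLE18 rose. Isocitrate lyase (ICL) and malate synthase (MS) carry the glyoxylate cycle, which turns carbon from stored oil into sugar precursors, and MFP is a multifunctional protein of fatty acid breakdown. In air ICL averaged 3.70 in Glc and 7.60 in Mtl (-3.90 ± 0.22 SE, limma adjusted p = 1.82e-05) and MS averaged 4.81 in Glc and 7.62 in Mtl (-2.80 ± 0.26, adjusted p = 0.000271), beside the OLE18 difference of 0.19. These were the 2 of 3 called lower with glucose in air, where 1.53% of all probes were. With DNP on mannitol all 3 were called lower, ICL by -3.46, MS by -2.17 and MFP by -1.28, where 10.4% of all probes were. OLE18 was 2.07 higher there. Under AC on mannitol ICL (-1.72) and MS (-1.97) were called lower, where 8.65% of all probes were. Between GlcAC and MtlAC 1 of 3 was called lower, beside 0.393% of all probes. In the DNP and AC interactions 2 of 3 were called each time, beside 1.19% and 1.15% of all probes. On glucose, MFP was the 1 of 3 called with DNP (-1.04), where 9.28% of all probes were called lower, while ICL (0.78) and MS (0.63) read higher without a call. Under AC on glucose none of the 3 was called, at 0.08 to 0.69.

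Of 21 genes for folding, sorting and cutting of reserve proteins, between 2 and 6 were called lower in each comparison with DNP or under AC. Over all probes, too, lower calls outnumbered higher ones in these 4 comparisons. Their median log2 difference was -0.27 with DNP on glucose, -0.14 with DNP on mannitol, -0.13 under AC on glucose and -0.45 under AC on mannitol, beside 0.10, 0.15, 0.03 and 0.10 over all probes. With DNP on glucose 4 of 21 were called lower, beside 9.28% of all probes, the disulfide isomerase genes PDIL5-1 (-1.41) and PDIL2-1 (-1.11), the calreticulin gene CRT1 (-1.37) and BIP1 (-1.13), a chaperone gene of the endoplasmic reticulum. The 1 of 21 called higher was RAB5A (1.04), a GTPase gene of glutelin transport, where 4.67% of all probes were called higher. With DNP on mannitol 3 of 21 were called lower, beside 10.4% of all probes, CRT1 (-1.38), PDIL5-1 (-1.07) and PDIL1-1 (-1.14), whose product keeps proglutelins and prolamins apart in the reticulum. Under AC on mannitol 6 of 21 were called lower, beside 8.65% of all probes, from PDIL1-4 (-1.58) to PDIL5-1 (-1.05). RAB5A was the 1 of 21 called higher there (1.28), beside 3.56% of all probes. Under AC on glucose PDIL1-4 (-1.04) and PDIL2-1 (-1.08) were called lower, where 3.25% of all probes were. BIP1 was the 1 called higher with glucose under AC (1.02 ± 0.23 SE, limma adjusted p = 0.0385), against 2.27% of all probes. VPE1, the vacuolar enzyme gene that cuts proglutelin, was called in none of the 7 comparisons, at -0.41 to 0.30.

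Among 10 genes matched by name to seed programme transcription factors, the calls came from RISBZ5 and HAP3F. Several of the 10, HAP3F included, were matched by the name HAP3, and their part in the seed programme was not checked. RISBZ5, a bZIP factor gene also called BZIP52, averaged 3.84 in Glc and 7.14 in Mtl (-3.30 ± 0.20 SE, limma adjusted p = 2.19e-05) and 4.23 in MtlDNP against that Mtl mean (-2.91 ± 0.20, adjusted p = 1.03e-05). It was higher in GlcAC, at 5.62, than in Glc (1.78 ± 0.20, adjusted p = 0.000533), and it was called in both interactions (3.41 for DNP and 2.67 for AC). HAP3F averaged 2.90 in Glc and 4.04 in Mtl (-1.13 ± 0.18, adjusted p = 0.00904), and 3.98 in GlcAC against that Glc mean (1.08 ± 0.18, adjusted p = 0.00582). Called lower with glucose in air were thus 2 of 10, beside 1.53% of all probes. Under AC on glucose 2 of 10 were called higher, beside 2.01%. With DNP on mannitol 1 of 10 was called lower, beside 10.4%. In the DNP and AC interactions 1 of 10 was called, beside 1.19% and 1.15%. VP1, the B3 factor gene that turns on seed maturation genes, was called in none of the 7 comparisons and stood between -0.18 and 0.70. Its difference with DNP was -0.08 on glucose and 0.55 on mannitol, beside 1.95 and 2.07 for OLE18.

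Of 5 genes matched to protease names by symbol alone, with no product description for CBP1, cbp3 and cbp31 to check the match, CP1, a cysteine protease gene, was called higher with DNP on glucose (1.25) and on mannitol (1.19) and under AC on mannitol (1.15). CBP1 (-1.68) and cbp31 (-1.13) were called lower with DNP on mannitol, and cbp3 (-1.08) and cbp31 (-1.02) under AC on mannitol. These were 2 of 5 each time, beside 10.4% and 8.65% of all probes called lower. CP1 was the 1 of 5 called higher, beside 4.67% of all probes with DNP on glucose. That share was 5.91% with DNP on mannitol and 3.56% under AC on mannitol. REP1, which encodes a cysteine proteinase that digests glutelin in germinating seeds, was called in none of the 7 comparisons, at -0.24 to 0.54.

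Of the marker genes of other cells, only LTP-2 and ISA1 were called with DNP. The aleurone and scutellum marker LTP-2 was the 1 of 3 called higher with DNP on mannitol (1.23 ± 0.21 SE, limma adjusted p = 0.00199), beside 5.91% of all probes. AMY1.1 stood at 0.91 and GAMYB at -0.98, neither past the size threshold, and the list averaged 2.71 and 2.56 in MtlDNP and 2.37 and 2.13 in Mtl. Of 6 endosperm starch markers, ISA1 alone was called with DNP, lower on glucose (-1.04) and mannitol (-1.23). The shares of all probes called lower were 9.28% on glucose and 10.4% on mannitol. In the other direction and uncalled, SSII-3 stood at 0.41 on glucose and 0.98 on mannitol, and Wx at 0.53 and 0.49. That list averaged 3.30 and 3.12 in GlcDNP and 3.32 and 3.33 in Glc, and 3.26 and 3.24 in MtlDNP and 3.27 and 3.24 in Mtl. Under AC on mannitol, where OLE18 was also called, ISA1 was again the 1 of 6 called lower, beside 8.65% of all probes. It averaged 4.00 in MtlAC and 5.33 in Mtl. The part of these markers in the OLE18 differences was not tested.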

How the data were processed

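The deposited table holds 36643 probe sets on 12 arrays. Per the labels, the authors' values are RMA values made with Expression Console (core level), on a log2 scale (the base was taken from the range, -0.4912 to 13.12). Affymetrix Power Tools also appears, per the submitters' processing notes. Their versions, the build and the gene annotation were not given in the sources used here. The number of arrays limits the precision. Gene names came from GEO's platform annotation (24161 probes with 1 gene) and from RefSeq (assembly GCF_034140825.1). No coordinates are printed, since the build behind the probes is not given.

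limma 3.58.1 in R 4.3.3 was fitted to all probes with 1 coefficient per condition (6 residual and 3.82 prior degrees of freedom), Benjamini-Hochberg adjustment over probes and no replicate block. A second model, additive in sugar and environment, used the 6 condition means (2 residual and 4.3 prior degrees of freedom). The code was tested on simulated data. Replicate numbers did not pair the arrays: over 15 pairs of conditions, deviations of same-numbered arrays correlated at -0.0214 to 0.0873.

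Named are the members, for each the 5 named genes of highest Pearson r, and called or otherwise leading members of each gene list. Members and lists were chosen with earlier results of these data known. List members were matched by symbol and synonym after the name tables were seen. Motif searches planned for promoters were not run, as no promoter sequence was used here. Alternatives were quantile normalization, a filter on dim probes, a trended and robust prior, the replicate block, the 4 compared arrays alone and leaving out arrays.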

Additional observations from a re-analysis of the deposited data

How the results depend on the processing

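The number of members called kept within 1.5 times of the reported one in 84 alternative results and left that range in 18. For AC over air on glucose it was 0 after quantile normalization, 0 with the replicate block (GLUA-1 adjusted p = 0.0532) and 0 with only the 4 arrays compared, and 0 to 0 as each array was left out. For glucose over mannitol under AC it was 1 with only the 4 arrays, 1 without dim probes (GLUA-1, with GLUB-4 and prolamin filtered out) and 0 to 1 as arrays were left out. In air it was 0 to 1, and for AC over air on mannitol 1 to 2. For AC across sugars it was 1 without dim probes (OLE18). The replicate block changed no other member's call, and moved the count of all probes for glucose over mannitol with DNP to 2 of the main 5.

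Some uncalled differences changed sign as arrays were left out, so the sign rested on 1 array. In ranges over those fits, sugar in air stood at -0.41 to 0.02 for GLUB-4 and -0.65 to 0.14 for prolamin, both positive without Glc replicate 2. DNP on glucose stood at -0.23 (without Glc replicate 2) to 0.56 for prolamin, and AC on glucose at -0.69 to 0.10 (without Glc replicate 1). The sugar and DNP interaction stood at -0.73 to 0.06 (without Glc replicate 1) for prolamin and -0.25 to 0.00 (without Glc replicate 1 or Mtl replicate 2) for OLE18. Sugar with DNP stood at -0.29 to 0.40 for GLUA-1, with -0.15 and -0.29 without GlcDNP replicate 1 or MtlDNP replicate 2, and its DNP difference on mannitol at -0.11 (without MtlDNP replicate 1) to 0.58.

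Counts over all probes moved by more than 1.5 times as follows. Sugar in air called 733 probes, 464 with 4 arrays and 414 to 456 without Glc replicate 1 or either Mtl array. Sugar with DNP called 5, and 0 to 21 otherwise. Sugar under AC called 975, 255 with 4 arrays and 295 to 581 without either GlcAC array or MtlAC replicate 1. AC on glucose called 1925, and 1280 or 1218 without Glc or GlcAC replicate 2. The DNP interaction called 435, and 241 to 287 without Glc replicate 1, either Mtl array or GlcDNP replicate 1. The AC interaction called 423, 236 after quantile normalization, 815 without dim probes, 707 with trend and robust and 72 to 214 with an array left out. DNP across sugars called 4693, and 2463 from replicate 1 alone. AC across sugars called 1589, and 178 or 642 from replicate 1 or 2 alone. The causes were not tested. Dim signal limits GLUB-4, prolamin in GlcAC and most other storage genes, whose fold sizes are unsettled.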
